A study of Rattus norvegicus with 8 samples.

Results

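Collagen is hydroxylated inside the cell and crosslinked outside it, and 10 rat genes for the enzymes of these steps were followed here. They are the lysyl oxidases Lox, Loxl1, Loxl2, Loxl3 and Loxl4, the lysyl hydroxylases Plod1, Plod2 and Plod3, and the prolyl 4-hydroxylase alpha subunits P4ha1 and P4ha2. They were picked by gene symbol, and all 10 were found among the 31699 rows of the gene table. All 10 also had a mean of at least 1 TPM (a level per transcript length that sums to the same total in every sample) over the 8 samples, as did 13103 rows in all. RNA-seq was performed on annulus fibrosus cells (AFCs) of Sprague Dawley rats, the cells of the outer ring of the intervertebral disc. Each sample had been put under mechanical stretch and infected with a lentivirus, which carried either the pLVX-shRNA-Puro control vector (Lv-Ctrl, 4 samples) or the same vector with a short hairpin RNA against Piezo1, a mechanosensitive ion channel (Lv-Piezo1, 4 samples). Per the methods of the study, tissue of several rats was pooled for each isolation and the third generation of cultured cells was used. The study describes the 4 samples of each group as biological repeats and counts cells of one isolation as one repeat, while the labels do not tie a sample to an isolation. The methods give at most 4 independent repeats, and cells of one repeat received the different treatments, so the groups would share isolations. Which samples share one is not given, and the main fit took the samples as unpaired. The p-values measure the spread between these samples.

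Prolyl 4-hydroxylase turns prolines of the nascent collagen chain into hydroxyprolines, which hold the triple helix together at body temperature. It works as a tetramer of alpha subunits (P4ha1, P4ha2 or P4ha3), which carry the catalytic site, and beta subunits (P4hb, protein disulfide isomerase). Lysyl hydroxylases modify lysines of the same chains, and Plod2 is the enzyme known for hydroxylating the telopeptides at the ends of the helix. Lysyl oxidases are secreted copper enzymes that oxidize lysines and hydroxylysines of collagen and elastin to reactive aldehydes, from which the covalent crosslinks of the matrix form. Several of these genes, P4ha1, P4ha2, Plod2, Lox and Loxl2 among them, are known targets of the hypoxia-inducible factors, which bind DNA at a short core of which ACGTG is one form.

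The start regions of P4ha2 and P4ha1 are shown because these enzymes had the largest differences between the groups, and that of Plod2 because it was the other one, of those with a promoter entry, that held ACGTG in this window. The sequences are the 250 bases before the annotated gene start in RefSeq, assembly GRCr8, written 5′ to 3′ on the strand of the gene, with ACGTG or its reverse complement CACGT in capitals. The windows lie at chr10:38743644-38743893 (P4ha2, plus strand), chr8:101964068-101964317 (Plod2, plus strand) and chr20:27844796-27845045 (P4ha1, plus strand).
P4ha2: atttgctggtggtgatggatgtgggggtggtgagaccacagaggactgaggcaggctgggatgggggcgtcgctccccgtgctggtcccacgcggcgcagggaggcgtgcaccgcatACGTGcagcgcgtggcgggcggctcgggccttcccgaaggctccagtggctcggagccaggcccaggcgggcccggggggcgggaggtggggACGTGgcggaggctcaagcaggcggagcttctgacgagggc
Plod2: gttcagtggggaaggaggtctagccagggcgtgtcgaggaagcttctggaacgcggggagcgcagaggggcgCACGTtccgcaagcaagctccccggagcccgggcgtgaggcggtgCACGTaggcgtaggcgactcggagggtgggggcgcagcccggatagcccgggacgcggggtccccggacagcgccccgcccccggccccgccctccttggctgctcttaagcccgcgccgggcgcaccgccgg
P4ha1: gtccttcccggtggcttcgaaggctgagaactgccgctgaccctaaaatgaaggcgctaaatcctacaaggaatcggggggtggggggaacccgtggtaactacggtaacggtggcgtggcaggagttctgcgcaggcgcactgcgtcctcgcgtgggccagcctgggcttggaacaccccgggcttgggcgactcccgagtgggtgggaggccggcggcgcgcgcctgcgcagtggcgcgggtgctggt

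Of the 10 enzymes, 8 had an entry in the promoter table (Lox and Loxl2 had none), and 2 of these 8 held ACGTG on either strand. The window of P4ha2 held it at 133 and at 41 bases before the start, both on the strand of the gene. The window of Plod2 held it at 178 and at 133 bases before the start, both on the opposite strand, where it reads CACGT on the strand shown. Among all 33469 promoters of the table, 5547 (16.6%) held the motif in the same window. No match was found in the windows of P4ha1, Loxl1, Loxl3, Loxl4, Plod1 or Plod3, which says only that these letters are not there. Other forms of the core were not searched for and are not marked in the sequences.

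Piezo1, the gene targeted by the hairpin, was read first. Its transcript lay at 30.1 ± 2.67 TPM (SD, n = 4) under the label Lv-Ctrl and at 39.4 ± 1.75 TPM (SD, n = 4) under the label Lv-Piezo1, with no overlap. The log2 fold change was 0.38 (SE 0.06, adjusted p = 8.6e-04), so the transcript goes against the label. A transcript level is no measure of the Piezo1 protein, which these data do not hold. Each direction given here is that of samples labelled Lv-Piezo1 relative to samples labelled Lv-Ctrl. Fold changes and p-values throughout are from limma on log2(TPM + 1) with Benjamini-Hochberg adjustment over the 13103 tested genes, a scale that understates changes of low genes. Over these genes the median log2 fold change was 0.14, and median-ratio scaling of the columns brought it to -0.0046. The sequencing depth is unknown, since TPM keeps none. Between 16645 and 17022 rows were above 0 per sample labelled Lv-Ctrl and between 17191 and 17657 per sample labelled Lv-Piezo1.

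One sample stood somewhat apart. Replicate 3 labelled Lv-Ctrl was the lowest of its group for 9 of the 10 enzymes, and for 48.5% of all tested genes, against 14.5% to 19.8% for the other samples labelled Lv-Ctrl. Its root mean square difference from the others of its group was 0.414 on the log2 scale, against 0.331 to 0.38 for those others and 0.32 to 0.365 among the samples labelled Lv-Piezo1. Replicate 2 labelled Lv-Piezo1 was the lowest of its group for 8 of the 10 enzymes and for 35.0% of all tested genes. Leaving out any 1 of the 8 samples, replicate 3 labelled Lv-Ctrl included, left the 9 enzymes other than Lox past an adjusted p of 0.05 and on the same side of 0, with adjusted p-values of at most 0.029.

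The labelled cell type was compared with marker genes. Of 6 annulus fibrosus and tendon-like markers, Col1a1 and Col1a2 were abundant, Scx measured 30.1 and 56.8 TPM and Mkx 25.4 and 14.6 TPM on average under the labels Lv-Ctrl and Lv-Piezo1, and Tnmd was listed at or near 0. Of the 5 tested, 3 were higher and 2 lower at an adjusted p below 0.05, the latter Mkx (log2 fold change -0.76) and Fmod (-0.99). Among all tested genes 41.9% were higher and 16.3% lower at this threshold. The summed level of the 6 was 5340 to 6002 TPM against 9452 to 10063 TPM. Nearly all of this sum was Col1a1 and Col1a2, at 5220 to 5881 TPM against 9347 to 9964 TPM. Smooth muscle and pericyte markers moved with the groups. All 8 of 10 that were tested were higher at an adjusted p below 0.05, 7 of the 8 after median-ratio scaling (Pdgfrb was then at -0.01), and their summed level was 442 to 451 TPM against 4551 to 4722 TPM. The log2 fold change was 4.69 for Acta2, 4.13 for Myh11, 3.95 for Cnn1, 3.63 for Tagln, 2.95 for Mcam and 1.68 for Des, while the pericyte marker Rgs5 stayed below 1 TPM. Chondrocyte and nucleus pulposus markers summed to 39.5 to 45.1 TPM against 74.7 to 82.8 TPM, with 3 of 5 tested higher. Cd24 (log2 fold change 2.25) and Comp (1.16) were past both thresholds, and Col2a1 was below 1 TPM. Comp averaged 0.74 TPM under the label Lv-Ctrl and 2.86 TPM under the label Lv-Piezo1. Its place among the 5 tested thus came from the group where it was higher. After quantile normalization Comp was at 0.93, short of the fold threshold, and Sox9 passed the test as lower (-0.23, adjusted p = 0.033). Macrophage markers summed to 21.8 to 23.6 TPM against 37.1 to 42.3 TPM, and Ptprc and Adgre1 were listed at or near 0. Of 7 macrophage markers only 2 were tested, and both were higher. Cd14 had a log2 fold change of 0.29 (0.13 and not past the test after median-ratio scaling). Cd68, at 2.88, measured 0.20 to 2.08 TPM under the label Lv-Ctrl, on average 0.955, against 12.3 TPM under the label Lv-Piezo1. It thus reached the mean of 1 TPM needed for testing only through the samples labelled Lv-Piezo1. All 5 endothelial markers were below 1 TPM in every sample and summed to 0.34 to 0.59 TPM against 0.39 to 0.62 TPM. In bulk RNA, fewer cells of a type and less RNA per cell cannot be told apart, and the part of these marker differences in the results on the enzymes was not tested.

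Of the 10 enzymes, 8 rose, 1 fell and 1 did not pass at an adjusted p below 0.05. Among all tested genes 58.2% passed in either direction, 41.9% higher and 16.3% lower. When a log2 fold change of at least 1 in size was also asked for, following the study's methods, 2 enzymes were called higher (P4ha1 and P4ha2) and 0 lower, against 7.67% of all tested genes in either direction, 4.91% higher and 2.76% lower. The groups did not overlap for 9 of the 10 enzymes, against 54.2% of all tested genes. The median log2 fold change of the 10 was 0.37, and 8 of the 10 exceeded the 0.14 of all tested genes.

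**Figure D1:**
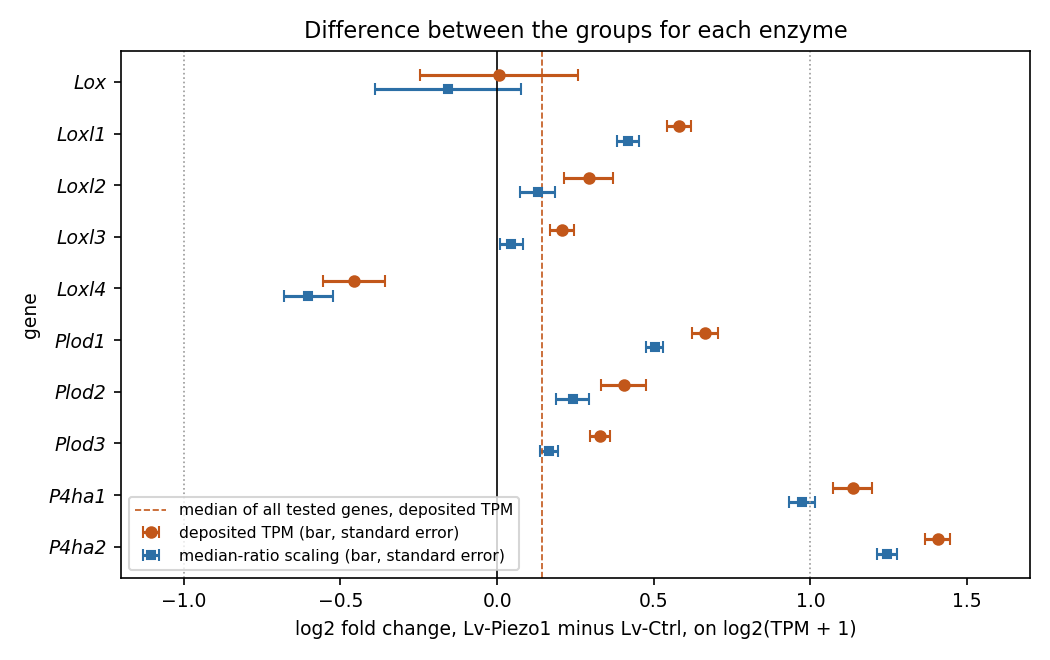
Log2 fold change of each enzyme, samples labelled Lv-Piezo1 minus samples labelled Lv-Ctrl, on log2(TPM + 1), on the deposited TPM (circles) and after median-ratio scaling (squares), with bars for the standard error, a dashed line at the median of all tested genes (0.14) and dotted lines at the fold threshold. P4ha2 and P4ha1 lie farthest to the right, Loxl4 lies left of 0, and the circle of Lox lies near 0 with the widest bar.

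The alpha subunits of prolyl 4-hydroxylase differed most. P4ha2 (ENSRNOG00000033663) measured 51.0, 48.2, 46.1 and 46.3 TPM in replicates 1, 2, 3 and 4 with the label Lv-Ctrl, an order kept for the other enzymes. It measured 128, 124, 131 and 131 TPM in the samples labelled Lv-Piezo1. Every sample labelled Lv-Piezo1 was far above every sample labelled Lv-Ctrl, and the samples of a group were close to each other. The mean rose from 47.9 ± 2.25 to 129 ± 3.62 TPM (SD, n = 4 each), or 2.68-fold, with a log2 fold change of 1.41 (SE 0.04, adjusted p = 1.2e-08). P4ha1 (ENSRNOG00000050655), the main alpha subunit of most cells, measured 141, 139, 118 and 129 TPM in the samples labelled Lv-Ctrl. It measured 282, 278, 287 and 315 TPM in the samples labelled Lv-Piezo1, again with a wide gap between the groups. The mean rose from 132 ± 10.5 to 290.5 ± 16.6 TPM (SD, n = 4 each), or 2.20-fold, with a log2 fold change of 1.14 (SE 0.06, 95% interval 0.99 to 1.28, adjusted p = 6.6e-07). After median-ratio scaling P4ha1 was just short of the fold threshold, at 0.97. Among all tested genes, 2.61% had a larger log2 fold change than P4ha2 and 4.25% a larger one than P4ha1.

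Both alpha subunits together measured 179.7 ± 12.4 TPM under the label Lv-Ctrl and 419 ± 19.3 TPM under the label Lv-Piezo1 (SD, n = 4 each), without overlap. P4ha2 took 26.7% of this sum on average under the label Lv-Ctrl and 30.7% under the label Lv-Piezo1, without overlap. The ratio of P4ha1 to P4ha2, which does not depend on how a column is scaled, was accordingly 2.56 to 2.89 under the label Lv-Ctrl and 2.18 to 2.40 under the label Lv-Piezo1. The other subunits are from the wider list of collagen biosynthesis genes. P4ha3, the third alpha subunit, rose from 42.2 ± 1.88 to 73.0 ± 2.24 TPM (log2 fold change 0.78, SE 0.04, adjusted p = 5.6e-07). P4hb, the beta subunit and a general disulfide isomerase, rose less, from 880 ± 6.37 to 1055 ± 16.2 TPM (log2 fold change 0.26, SE 0.02, adjusted p = 1.7e-05), and by 0.10 after median-ratio scaling. The ratio of P4hb to the 3 alpha subunits was therefore 3.76 to 4.27 under the label Lv-Ctrl and 2.08 to 2.19 under the label Lv-Piezo1. The transcript of the beta subunit was thus in excess over those of the alpha subunits in every sample, and by a smaller factor in the samples labelled Lv-Piezo1.

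**Figure D2:**
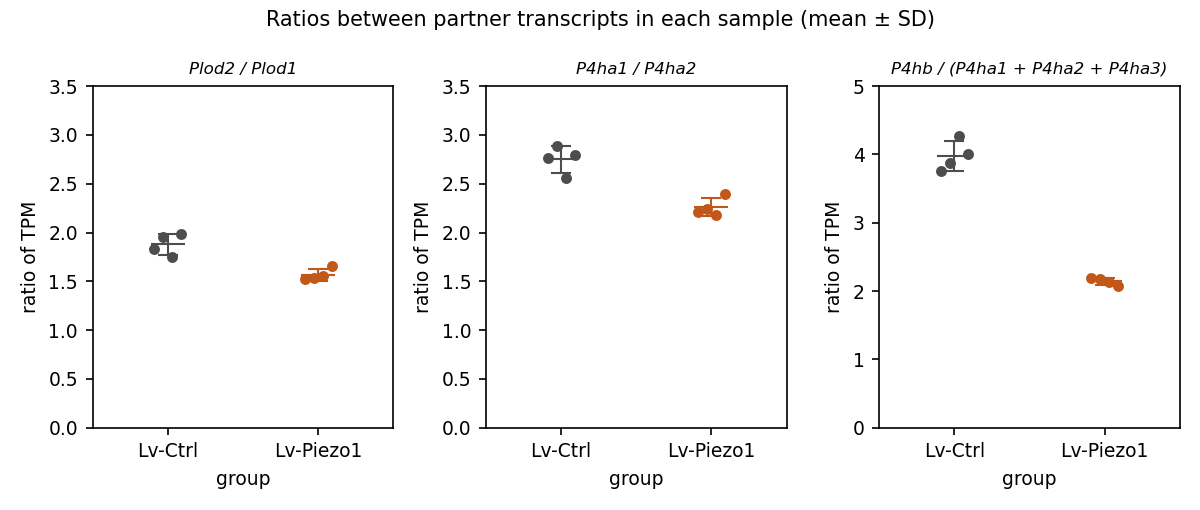
Ratios of TPM within each sample for the pairs described in the text, with 1 point per sample and bars for the mean ± SD of the group. The samples labelled Lv-Piezo1 lie below those labelled Lv-Ctrl for P4ha1 over P4ha2 (2.18 to 2.40 against 2.56 to 2.89), for P4hb over the 3 alpha subunits (2.08 to 2.19 against 3.76 to 4.27) and for Plod2 over Plod1 (1.52 to 1.66 against 1.75 to 1.98).

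The lysyl hydroxylases all rose. Plod1 (ENSRNOG00000007763), which hydroxylates lysines within the triple helix, measured 173, 172, 156 and 163 TPM under the label Lv-Ctrl and 260.1, 255, 266 and 275 TPM in the samples labelled Lv-Piezo1. The groups were well apart. The mean rose from 166 ± 8.08 to 264 ± 8.64 TPM (SD, n = 4 each), or 1.59-fold, with a log2 fold change of 0.66 (SE 0.04, adjusted p = 1.5e-06). Plod2 (ENSRNOG00000030183), the telopeptide enzyme, measured 317, 336, 273 and 324 TPM under the label Lv-Ctrl and 395, 389.8, 413 and 456 TPM in the samples labelled Lv-Piezo1. It was the most abundant of the lysyl hydroxylases in each sample, lowest in replicate 3 labelled Lv-Ctrl and highest in replicate 4 labelled Lv-Piezo1. The mean rose from 313 ± 27.4 to 414 ± 30.2 TPM (SD, n = 4 each), with a log2 fold change of 0.40 (SE 0.07, adjusted p = 0.0011). Plod3 (ENSRNOG00000001417), which also glycosylates hydroxylysine, measured 161, 162, 152 and 153 TPM under the label Lv-Ctrl and 199, 194, 199 and 196 TPM in the samples labelled Lv-Piezo1. Its samples varied least of all 10 enzymes within a group, and the log2 fold change was 0.33 (SE 0.03, adjusted p = 2.2e-05).

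The sum of the lysyl hydroxylases was 636 ± 38.3 TPM under the label Lv-Ctrl and 875 ± 38.4 TPM under the label Lv-Piezo1, 1.38-fold higher and without overlap, and Plod1 took a larger share of it. Plod1 held 26.2% of it under the label Lv-Ctrl and 30.2% under the label Lv-Piezo1, without overlap, and Plod3 held 24.7% and 22.6%, also without overlap. The share of Plod2 was 49.1% and 47.2%, and the samples overlapped. The ratio of Plod2 to Plod1 was 1.88 ± 0.109 under the label Lv-Ctrl and 1.57 ± 0.0639 under the label Lv-Piezo1 (SD, n = 4 each), without overlap. The ratio of Plod2 to Plod3 was 1.99 ± 0.143 and 2.10 ± 0.160, with overlap.

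Among the lysyl oxidases the members moved apart from each other. Lox (ENSRNOG00000014426), the founding member and the most abundant of the 10 enzymes, measured 1015, 1029, 451 and 839 TPM in the samples labelled Lv-Ctrl. It measured 748, 648, 852 and 978 TPM in the samples labelled Lv-Piezo1. The groups overlapped widely, and replicate 3 labelled Lv-Ctrl was the lowest of all 8 samples. The means were 834 ± 269 and 806 ± 141 TPM (SD, n = 4 each), and the log2 fold change was 0.0068 (SE 0.25, 95% interval -0.57 to 0.58, adjusted p = 0.99, exact two-sided permutation p = 0.857). This interval reaches far to both sides of 0. Without replicate 3 labelled Lv-Ctrl the log2 fold change was -0.26 (SE 0.14, adjusted p = 0.14). The variation of Lox within a group was also the largest of the 10 enzymes, with a coefficient of variation of 32.3% and 17.5% under the labels Lv-Ctrl and Lv-Piezo1.

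Loxl1 (ENSRNOG00000008680), a lysyl oxidase known for elastic fibres, measured 190, 196, 180 and 179 TPM under the label Lv-Ctrl and 288, 270.2, 281 and 276 TPM in the samples labelled Lv-Piezo1. The groups were far apart, and the mean rose from 186 ± 7.97 to 279 ± 7.53 TPM (SD, n = 4 each), with a log2 fold change of 0.58 (SE 0.04, adjusted p = 1.9e-06). Loxl2 (ENSRNOG00000016758), which is known for crosslinking type IV collagen, measured 126, 130.5, 102 and 118 TPM under the label Lv-Ctrl and 140.2, 138, 146 and 159 TPM in the samples labelled Lv-Piezo1. The groups were apart by a small margin, and the log2 fold change was 0.29 (SE 0.08, adjusted p = 0.0099). Loxl3 (ENSRNOG00000061373), a close paralog of Loxl2, measured 88.4, 86.3, 82.0 and 82.1 TPM under the label Lv-Ctrl and 97.8, 96.9, 102 and 95.0 TPM in the samples labelled Lv-Piezo1. Its groups did not overlap either, and the log2 fold change was 0.21 (SE 0.04, adjusted p = 0.0012). Neither Loxl2 (0.13, adjusted p = 0.077) nor Loxl3 (0.05, adjusted p = 0.32) passed the test after median-ratio scaling.

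Loxl4 (ENSRNOG00000015727), the least abundant of the 10 enzymes, was the one that fell. It measured 13.1, 13.5, 9.77 and 12.0 TPM under the label Lv-Ctrl and 7.85, 8.39, 8.31 and 9.47 TPM in the samples labelled Lv-Piezo1. Replicate 3 labelled Lv-Ctrl and replicate 4 labelled Lv-Piezo1 came close to each other, and the groups did not overlap. The mean fell by 29.7%, from 12.1 ± 1.68 to 8.51 ± 0.686 TPM (SD, n = 4 each), with a log2 fold change of -0.46 (SE 0.10, 95% interval -0.68 to -0.23, adjusted p = 0.0036). For each of the 9 enzymes without overlap, the exact two-sided permutation test gave an unadjusted p = 0.029, the smallest that 4 samples against 4 allow over 70 relabelings. Groups without overlap give this p by themselves, so it adds nothing to the lack of overlap, which 54.2% of all tested genes shared.

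Lox held 66.1% of the summed lysyl oxidase TPM on average under the label Lv-Ctrl and 60.0% under the label Lv-Piezo1, with overlap. The sum was 826 to 1455 TPM in samples labelled Lv-Ctrl and 1162 to 1517 TPM in samples labelled Lv-Piezo1, with overlap. The other lysyl oxidases together measured 402 ± 23.9 and 531 ± 11.8 TPM, 1.32-fold higher under the label Lv-Piezo1 and without overlap. All 10 enzymes together measured 1572 to 2312 TPM against 2403 to 2891 TPM.

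**Figure D3:**
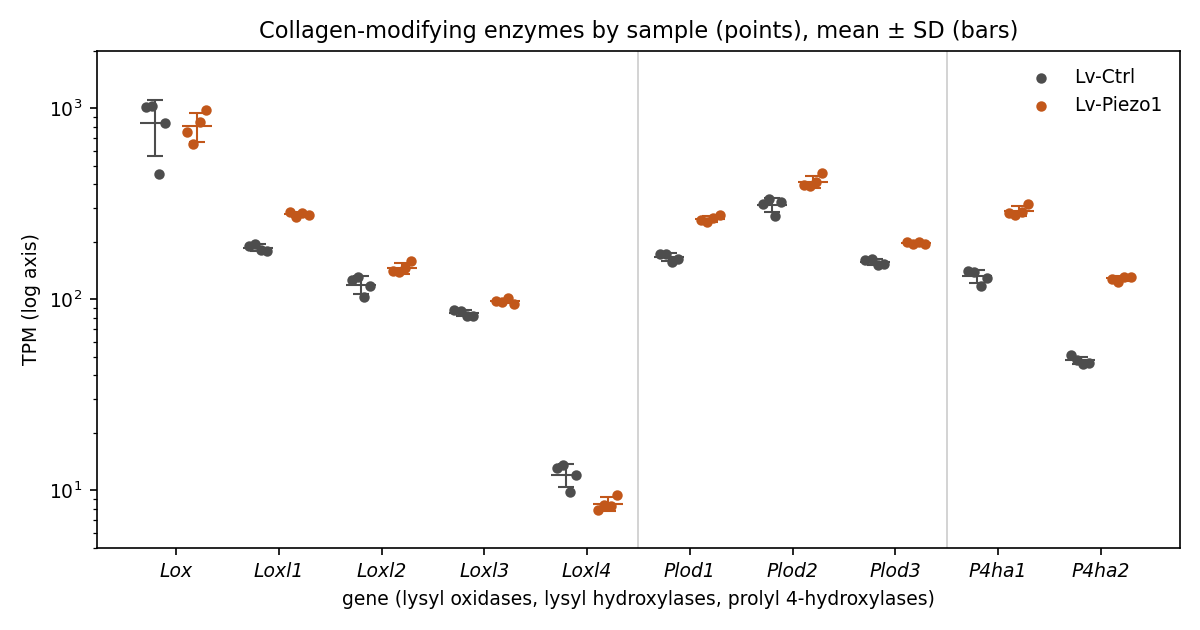
TPM of each enzyme in each sample (points, log axis) with bars for the mean ± SD of each group of 4, by gene and label. The groups are apart for every enzyme but Lox, whose replicate 3 labelled Lv-Ctrl (451 TPM) lies lowest. Of the enzymes with groups apart, only Loxl4 is lower in the samples labelled Lv-Piezo1.

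Because TPM is per length, the levels of the enzymes can be ordered within a group. Under the label Lv-Ctrl the order of the mean TPM was Lox, Plod2, Loxl1, Plod1, Plod3, P4ha1, Loxl2, Loxl3, P4ha2 and Loxl4. The neighbours Plod1 and Plod3 overlapped in their samples, as did P4ha1 and Loxl2. Under the label Lv-Piezo1 P4ha1 stood in the place after Plod2, where its samples overlapped with those of Loxl1, and those of Loxl1 with those of Plod1. P4ha2 stood above Loxl3 there. The other neighbours in both orders did not overlap.

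The substrates of these enzymes were measured in the same samples. Of 10 genes for fibrillar collagens and elastin, 7 were tested, 6 rose and 0 fell, where 41.9% of all tested genes were higher and 16.3% lower. Col1a1, the major chain of type I collagen, rose from 3282 ± 137 to 5835 ± 103 TPM (log2 fold change 0.83, adjusted p = 1.3e-07). Col1a2, its partner chain, rose from 2316 ± 141 to 3795 ± 159 TPM (log2 fold change 0.71, adjusted p = 2.9e-06). Col3a1 rose from 188 ± 13.8 to 262 ± 13.6 TPM (log2 fold change 0.48, adjusted p = 1.2e-04). The fold threshold was passed by Col5a2 alone, a type V collagen chain that takes part in starting fibrils, which rose from 745 ± 66.5 to 1521 ± 63.5 TPM (log2 fold change 1.03, adjusted p = 1.4e-06). After median-ratio scaling 6 were still higher and 0 passed the fold threshold. Elastin (Eln) was listed at 0 to 0.02 TPM under the label Lv-Ctrl and at 0.89 to 1.61 TPM under the label Lv-Piezo1, below the limit for testing.

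The enzymes were also set against type I collagen. The sum of Col1a1 and Col1a2 was 5598 ± 277 TPM under the label Lv-Ctrl and 9630.5 ± 253 TPM under the label Lv-Piezo1, 1.72-fold higher. Per 1000 TPM of this sum, a ratio within a sample that does not depend on the scaling of its column, P4ha1 was 22.6 to 24.7 TPM under the label Lv-Ctrl and 29.4 to 31.6 TPM under the label Lv-Piezo1. P4ha2 was likewise higher, at 8.20 to 8.97 against 13.2 to 13.7 TPM. The other enzymes were lower relative to this sum of type I collagen chains, and other collagens were not used as the base. Plod1 was 29.1 to 30.5 against 27.1 to 27.6 TPM per 1000, and Loxl1 31.9 to 34.6 against 27.7 to 30.0 TPM per 1000, both close but without overlap. Plod2 was 55.8 ± 2.43 against 42.9 ± 2.07 TPM per 1000, Loxl2 21.3 against 15.1 and Loxl4 2.15 against 0.883 on average, also without overlap, as were Plod3 and Loxl3. Lox was 147 ± 42.6 against 83.5 ± 12.6 TPM per 1000, and only its groups overlapped, through replicate 3 labelled Lv-Ctrl at 86.5.

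**Figure D4:**
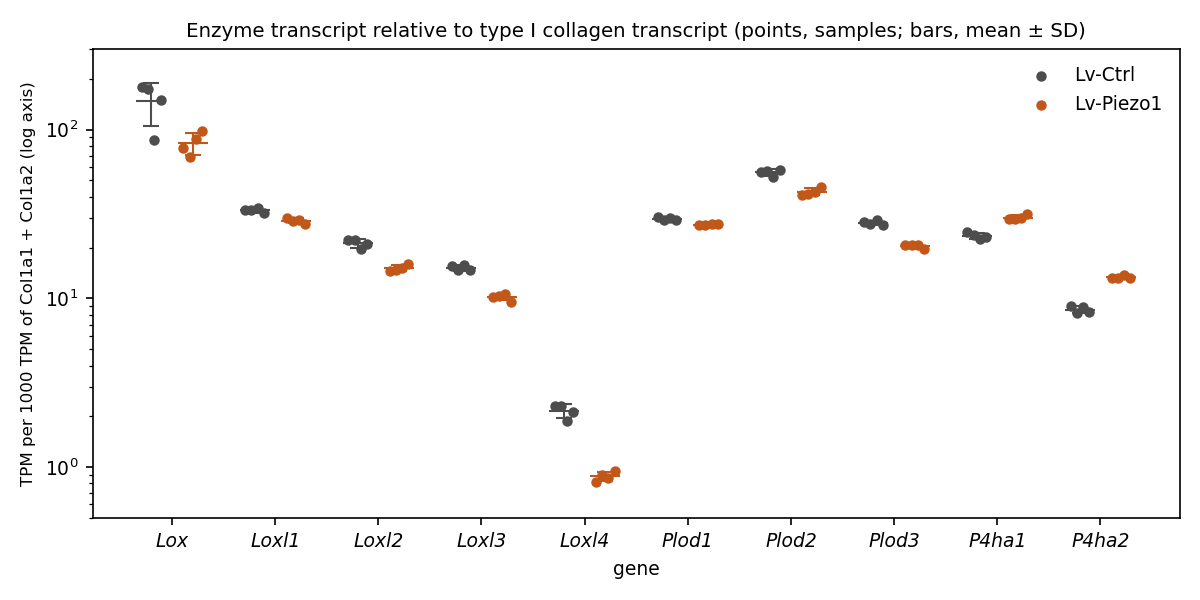
TPM of each enzyme per 1000 TPM of Col1a1 and Col1a2 in each sample (points, log axis), with bars for the mean ± SD of each group of 4. Only P4ha1 and P4ha2 lie higher in the samples labelled Lv-Piezo1, and Lox is the only enzyme whose groups overlap.

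The other genes of collagen biosynthesis were read from a list of 42, of which 40 had a row and 36 were tested (Crtap and Pcolce2 were not analysed here). Of these, 18 rose, 7 fell and 11 did not pass at an adjusted p below 0.05, where 41.9% of all tested genes were higher and 16.3% lower. The median log2 fold change of the 36 was 0.15, close to the 0.14 of all tested genes. The split of the calls depended on the scaling, with 12 higher and 14 lower after median-ratio scaling and 15 and 9 after quantile normalization. Past the fold threshold as well, 2 were higher and 1 was lower, where 4.91% of all tested genes were higher and 2.76% lower. Fmod was a further one called lower after median-ratio scaling (-1.15), after quantile normalization (-1.09), without mitochondrially encoded genes (-1.01) and with a pseudocount of 0.1 (-1.01), which made 2 higher and 2 lower. Postn, a matricellular protein that binds the lysyl oxidase activator Bmp1, rose from 199 ± 14.6 to 582 ± 26.4 TPM (log2 fold change 1.54, adjusted p = 5.2e-08). Fn1, the fibronectin on which Lox can be activated, rose from 1939.7 ± 242 to 4908 ± 297 TPM (log2 fold change 1.35, adjusted p = 2.0e-06). Tll1, a protease related to Bmp1, fell from 19.8 ± 2.06 to 8.32 ± 1.03 TPM (log2 fold change -1.16, adjusted p = 9.6e-06).

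By role, the values outside the naming rule that follow were chosen after they were seen. Of the 5 tested genes of prolyl 3-hydroxylation, 3 rose (P3h1 0.37, P3h4 0.30 and P3h3 0.24 on the log2 scale) and 1 fell (P3h2 -0.59). Of the 5 tested genes of propeptide processing, 2 rose, Bmp1 (0.40), the procollagen C-proteinase, and Adamts14 (0.64), an N-proteinase, and 2 fell, Tll1 and the proteinase enhancer Pcolce (-0.25). Of the 6 lysyl oxidase scaffold genes, 3 rose and 2 fell, Fmod, fibromodulin (-0.99), and Efemp2, the fibulin that brings Lox to elastin (-0.26). Of the 6 folding genes, 3 rose and 0 fell, and Serpinh1, the collagen chaperone, had a log2 fold change of -0.01 (adjusted p = 0.85). Of the 5 procollagen export genes, 1 rose and 1 fell. Of the 4 tested genes of copper, zinc and ascorbate supply, 1 rose and 1 fell, Slc23a2, an ascorbate transporter (-0.49). Both genes of other crosslinks rose, Tgm2, tissue transglutaminase (0.92), and Pxdn, which crosslinks type IV collagen (0.59). Colgalt1, which glycosylates hydroxylysine, rose by 0.19 on the log2 scale. After median-ratio scaling P3h3, Fkbp9, Fkbp10, Mia3, Slc31a1 and Colgalt1 no longer passed the test, at log2 fold changes of 0.08, 0.01, 0.07, 0.10, 0.01 and 0.03. Under the same scaling 7 genes passed as lower that had not passed before, namely Serpinh1 (-0.17, adjusted p = 0.0036), Fkbp14 (-0.36), Ppib (-0.31), Sec23a (-0.23), Atox1 (-0.24), Slc39a13 (-0.12) and Ltbp4 (-0.16). The folding genes then had 1 higher (Tmem38b) and 2 lower.

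**Figure D5:**
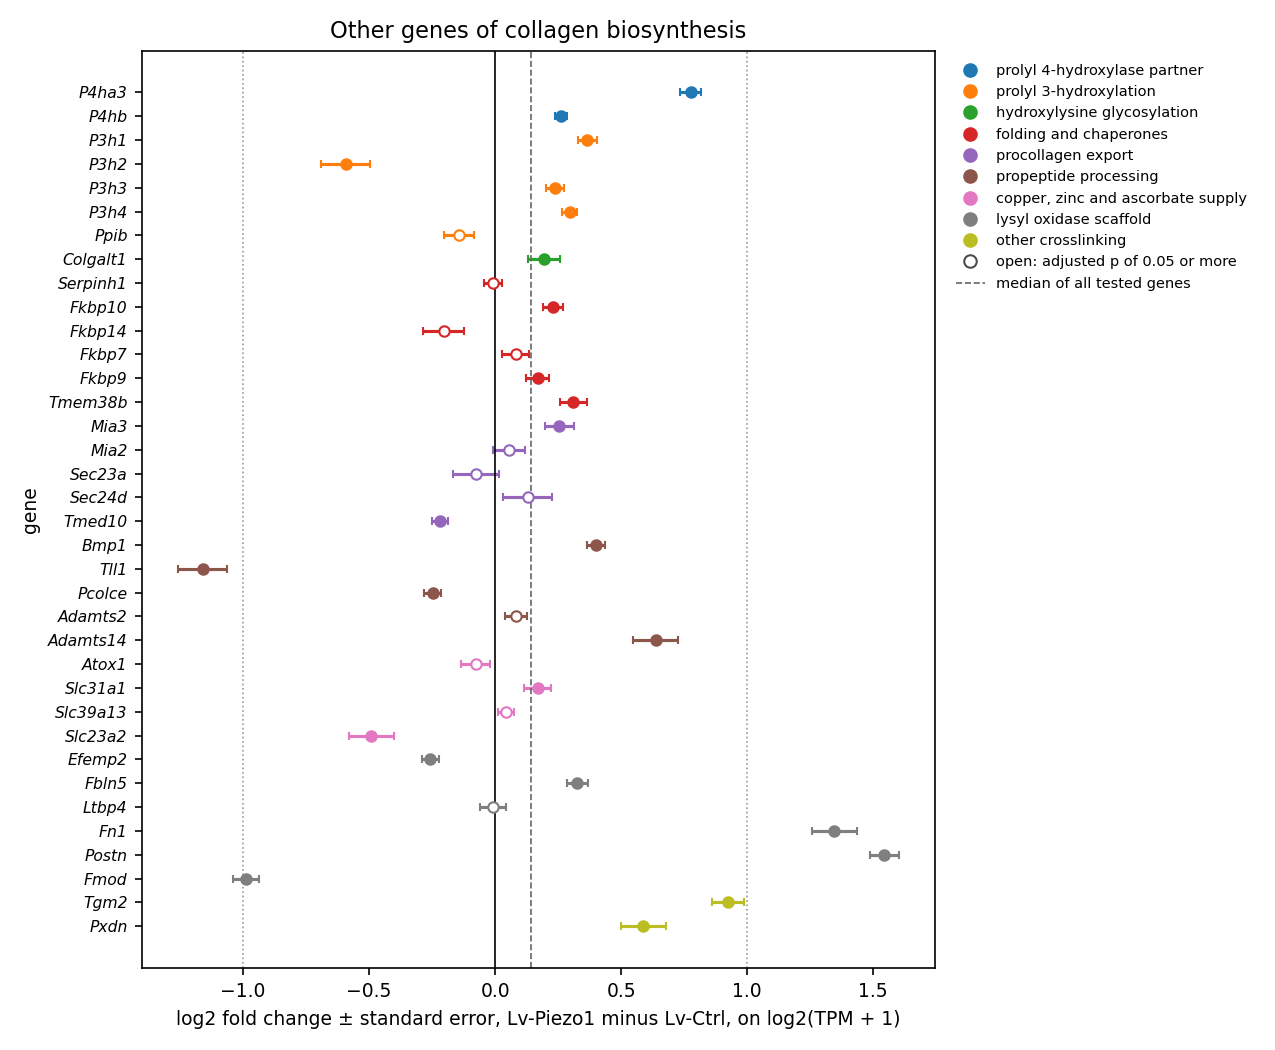
Log2 fold change of the tested genes of the collagen biosynthesis list, samples labelled Lv-Piezo1 minus samples labelled Lv-Ctrl, on log2(TPM + 1), with bars for the standard error, colours for the role, open points for an adjusted p of 0.05 or more, a dashed line at the median of all tested genes and dotted lines at the fold threshold. Postn (1.54) and Fn1 (1.35) lie farthest to the right and Tll1 (-1.16) farthest to the left.

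Genes known to respond to hypoxia were read from a list of 20, of which 18 genes with 19 rows were tested (Aldoa has 2 rows, and Pgk1 and Car9 were not analysed here). Of the rows, 15 rose, 2 fell and 2 did not pass, where 41.9% of all tested genes were higher and 16.3% lower. The median log2 fold change of the rows was 0.46, and 14 of the 19 exceeded the 0.14 of all tested genes. After median-ratio scaling 12 were higher, 2 lower and 5 did not pass, and the calls past the fold threshold went from 2 higher and 0 lower to 1 higher (Egln3) and 1 lower (Adm, -1.07). Egln3, a prolyl hydroxylase of the hypoxia-inducible factors, rose from 1.43 ± 0.241 to 15.2 ± 0.604 TPM (log2 fold change 2.74, adjusted p = 1.5e-08). Vegfa, an angiogenic growth factor, rose from 60.7 ± 7.73 to 132 ± 4.59 TPM (log2 fold change 1.12, adjusted p = 5.4e-06), and was at 0.96, short of the fold threshold, after median-ratio scaling. The rows that fell, named after their values were seen, were Adm, adrenomedullin (-0.90), and Bnip3, a mitophagy receptor (-0.19). Whether hypoxia had a part in the levels of P4ha1, P4ha2 or Plod2 was not tested.

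The genes whose profile over the 8 samples was nearest to that of a called enzyme were found by the root mean square difference of centred log2(TPM + 1). For P4ha2 they were Gjb2 (0.0369), a gap junction gene, which rose from 3.30 ± 0.314 to 10.7 ± 0.297 TPM, and Ttyh2 (0.0387). For P4ha1 they were Myh9 (0.0327), the non-muscle myosin heavy chain, which rose from 202 ± 17.4 to 449.7 ± 20.7 TPM, and Tnc (0.0336), the matrix protein tenascin C, which rose from 238 ± 24.5 to 519.6 ± 27.3 TPM. Both enzymes differed strongly between the groups, so a near profile carries a similar group difference with it. The rise of these genes thus came with their selection and is no separate result.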

How the data were processed

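RNA-seq was analysed in 8 samples, 4 per label. The authors deposited TPM with 2 decimals. Per the methods of the study, reads were cleaned, mapped to the rat genome with HISAT2 and assembled with StringTie. Those methods name FPKM and DESeq, and the submitters' processing notes name DESeq2 and mm10, a mouse build. How the TPM were made, and the rat build and annotation, are not given in the sources used here. Overlapping genes and close paralogs could share reads in such values, and the strand setting is not stated. The authors' mean columns were used only as a check.

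Log2 values of the deposited TPM plus a pseudocount of 1 were fitted in R 4.3.3 with limma 3.58.1 (empirical Bayes with a trend, no block, Benjamini-Hochberg adjustment) over the 13103 rows with a mean of at least 1 TPM. Calls needed an adjusted p below 0.05 together with a log2 fold change of 1 or more in size. Single enzymes were also compared by an exact two-sided permutation test. In simulated data of 10769 genes, the fit recovered 196 of 200 genes changed by 2 on the log2 scale and called 0 unchanged genes. That change is larger than the one of any enzyme, and the simulated errors were independent and normal. The simulation therefore checks that the fit runs properly and says nothing on changes of the enzymes' size.

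The enzymes, lists and tests were chosen with earlier results of these data known, and lists were written from general knowledge. Named are all 10 enzymes, Piezo1, P4hb, P4ha3, Col1a1, Col1a2, Col3a1, called genes of each list (at most 8 a list) and the 2 nearest profiles of each called enzyme. Alternatives were a pseudocount of 0.1, no filter, a mean of at least 5 TPM, median-ratio scaling, quantile normalization, TPM without the 13 mitochondrially encoded genes, no trend, the replicate block, no fold threshold and leaving out each sample.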

Additional observations from a re-analysis of the deposited data

Results flagged for a closer look

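In each group of 4 samples, the enzymes and the other genes named by rule were searched for a sample far from the others (Dixon's criterion at the 95% level). Of 70 groups over 35 genes, 3 met it, and chance flags about 1 group in 20. None of the 3 was one of the enzymes. Postn in replicate 3 labelled Lv-Ctrl measured 177.45 TPM, below the 205.78 to 207.66 TPM of the other samples. Col3a1 in the same replicate measured 168 TPM, below 194 to 198 TPM. Acta2 in replicate 4 labelled Lv-Piezo1 measured 1284 TPM, below 1359 to 1369 TPM.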

How the results depend on the processing

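Over 16 alternatives for each of the 10 enzymes, 153 of 160 log2 fold changes kept their direction and their side of an adjusted p of 0.05, 5 changed sign and 2 no longer passed. The 5 were all of Lox, at -0.16 after median-ratio scaling, -0.017 without mitochondrially encoded genes, -0.26 without replicate 3 labelled Lv-Ctrl, -0.025 without replicate 3 labelled Lv-Piezo1 and -0.091 without replicate 4 labelled Lv-Piezo1, with adjusted p-values of 0.14 or more from limma, and leaving out single samples gave -0.26 to 0.13. The 2 were Loxl2 and Loxl3 after median-ratio scaling, which moved the median of all tested genes from 0.14 to -0.0046. The number of enzymes called was 2, 1 after median-ratio scaling, 9 without a fold threshold and 2 to 2 leaving out single samples. The number of called genes of the collagen biosynthesis list was 3, 4 (Fmod added) under each rescaling of the columns and with a pseudocount of 0.1, 25 without a fold threshold and 3 to 4 leaving out single samples (Fmod added without replicate 3 or 4 labelled Lv-Ctrl or replicate 4 labelled Lv-Piezo1). Over all tested genes 1005 were called, 628 at a mean of at least 5 TPM (fewer genes tested), 7626 without a fold threshold and 1006 to 1030 leaving out single samples. Of the called genes 64.1% were higher in the samples labelled Lv-Piezo1, and quantile normalization made this 48.8% and median-ratio scaling 52.3%.

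Samples of the groups share replicate numbers. The deviations of samples of the same number had correlations of -0.0576 to -0.0124, and those of other pairs -0.0867 to 0.112. By the methods of the study, with at most 4 independent repeats, the groups would share isolations. These correlations cannot show whether samples of the same number shared one, so which samples form pairs is not known. With the replicate block 1004 genes, 2 enzymes and 3 genes of the list were called. TPM keeps no depth, so counting error could not be given. With 4 samples a group the interval of Lox was wide on both sides of 0, and the smallest detectable change was not computed.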
